A study of Mus musculus with 2 samples.

Results

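*Spp1*, *Igf1*, *Lpl*, *Clec7a*, *Itgax*, *Gpnmb*, *Lgals3*, *Fabp5* and *Cst7* are 9 genes for which microglia of developing white matter are known, and their expression was examined in single cells of the mouse ventral parafacial region at postnatal day 10. The genes were taken by symbol, with no measured value in the rule. Of the 9 symbols, 8 were found among the 28692 genes of the data, and *Clec7a* was not analysed here. The cells examined first were those with at least 8 unique transcripts (UMIs) summed over *C1qa*, *C1qb*, *C1qc* and *Csf1r*, which are microglia and macrophage genes. This gate held 411 of 3339 filtered cells in the untreated library and 668 of 8558 in the 4OH-tamoxifen library.

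Both libraries were prepared from wild-type C57BL/6J pups, each from 8 pooled mice (4 male and 4 female). The untreated pups were batch 1, and the pups given 4OH-tamoxifen (0.2 mg per day for 3 days), the active metabolite of tamoxifen that is used to switch on inducible Cre enzymes, were batch 2. Each condition was 1 library, so treatment, batch and library cannot be told apart, the mice within a pool cannot be separated, and no test between conditions was possible. Intervals are 95% and cover counting error only.

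Microglia are the resident macrophages of the brain. In the first postnatal weeks, as oligodendrocytes begin to form myelin, some microglia in and near white matter become amoeboid, divide, and engulf young oligodendrocytes and debris. These cells are known for secreting osteopontin and insulin-like growth factor, for handling lipid, and for turning down genes of resting microglia such as *P2ry12* and *Tmem119*. Much of the same set of genes is also known from microglia around amyloid plaques and in demyelinated tissue. *Spp1* (osteopontin, a secreted phosphoprotein that binds integrins and CD44) and *Igf1* (a growth factor that acts through the receptor encoded by *Igf1r*) are the secreted ligands of the set. *Lpl* (lipoprotein lipase, which releases fatty acids from triglyceride) and *Fabp5* (a carrier of fatty acids inside the cell) handle lipid. *Itgax* (integrin alpha X, or CD11c), *Gpnmb* (a glycoprotein of membranes and lysosomes) and *Lgals3* (galectin 3, a lectin that binds galactosides) are surface, vesicle and lectin genes, and *Cst7* (cystatin F) inhibits lysosomal proteases.

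All 8 genes lie on the plus strand of GRCm38: *Spp1* on chromosome 5 (104435118 to 104441050), *Igf1* on 10 (87858265 to 87937042), *Lpl* on 8 (68880491 to 68907448), *Fabp5* on 3 (10012548 to 10016607), *Itgax* on 7 (128129547 to 128150657), *Gpnmb* on 6 (49036546 to 49070929), *Lgals3* on 14 (47367751 to 47386160) and *Cst7* on 2 (150570415 to 150578944). RefSeq windows of the 250 bases before a start site (GRCm38.p6) were matched to 6 of the 8 members by symbol (7 windows, *Spp1* having a pair), and those of *Lpl* and *Fabp5* are not shown. The windows of 3 members are shown because these genes span the range of patterns described below. *Cst7* was far higher in microglia than in non-myeloid cells, *Itgax* was rare and *Spp1* had its highest measured level in cholinergic neurons. Capitals mark the motifs searched for on both strands, and a match is a string of letters and not a binding site.
*Spp1* (chr5:104434861-104435110, plus strand): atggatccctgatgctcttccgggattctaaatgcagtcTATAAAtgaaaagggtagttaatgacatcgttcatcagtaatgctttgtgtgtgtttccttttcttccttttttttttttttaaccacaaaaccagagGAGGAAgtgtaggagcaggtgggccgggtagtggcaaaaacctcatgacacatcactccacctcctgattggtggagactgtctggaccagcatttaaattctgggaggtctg
*Itgax* (chr7:128129300-128129549, plus strand): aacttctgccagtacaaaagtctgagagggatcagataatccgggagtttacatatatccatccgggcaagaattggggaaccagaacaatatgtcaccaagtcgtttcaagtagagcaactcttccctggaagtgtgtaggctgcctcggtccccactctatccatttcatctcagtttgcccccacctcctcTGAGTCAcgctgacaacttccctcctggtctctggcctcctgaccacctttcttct
*Cst7* (chr2:150570165-150570414, plus strand): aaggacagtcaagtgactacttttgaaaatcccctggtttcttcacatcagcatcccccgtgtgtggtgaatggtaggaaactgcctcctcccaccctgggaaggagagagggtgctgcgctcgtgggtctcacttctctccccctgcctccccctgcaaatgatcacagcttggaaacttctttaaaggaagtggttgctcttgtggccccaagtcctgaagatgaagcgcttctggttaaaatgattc
The motifs were CACGTG and TCATGTG (E-box forms bound by MiT/TFE factors), TGANTCA (the AP-1 motif), GAGGAA (a PU.1 core) and TATAAA (the TATA box), none of which overlapped another in these windows. Counted from the start site, the *Spp1* window held TATAAA at -211 and GAGGAA at -113, and the *Itgax* window held 1 AP-1 motif at -56. The *Igf1* window (chr10:87860861-87861110), which lies inside the annotated gene, held GAGGAA at -60 and an AP-1 motif at -37. Among all 32851 promoter windows of this length, 12.4% held TATAAA, 23.3% GAGGAA, 6.75% the AP-1 motif, 6.02% CACGTG and 3.25% TCATGTG, and the windows of *Cst7*, *Gpnmb* and *Lgals3* and the other window of *Spp1* held none of them. The *Lgals3* window and the other *Spp1* window also lie inside the annotated genes.

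The microglia class was composed of cells with at least 8 UMIs of the 4 gate genes, no UMI of *Mrc1* (the mannose receptor of perivascular and meningeal macrophages) and no pass of a gate for another cell type. It comprised 309 cells in the untreated library and 533 in the 4OH-tamoxifen library, with a median of 4010 and 2277 UMIs per cell. Of the cells above the myeloid gate, 77 and 105 passed a second gate and were left out of every class. The markers fixed for the class were present. *P2ry12* was detected in 98.1% and 83.5% of these cells and *Tmem119* in 94.2% and 78.4%. The macrophage genes *Pf4*, *Lyve1*, *Cd163*, *F13a1*, *Ms4a7*, *Cbr2* and *Stab1* summed to 104 and 127 UMIs per 1000000 UMIs (CPM) in microglia, against 9956 and 10765 CPM in the 20 and 18 cells classed as macrophages (at least 2 *Mrc1* UMIs). The monocyte and neutrophil genes *Ly6c2*, *Ccr2*, *Plac8*, *Chil3*, *S100a8* and *S100a9* summed to 12.4 and 6.01 CPM in microglia. The dendritic cell genes *Flt3*, *Cd209a*, *Xcr1*, *Clec9a*, *Ccr7* and *Zbtb46* summed to 3.10 and 6.77 CPM, and *Ly6c2*, *Ccr2*, *Chil3*, *Cd209a*, *Clec9a* and *Ccr7* were at 0 in both.

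The 2 libraries held 3767 and 10241 barcodes with 18496942 and 34704167 UMIs, a median of 3455 and 2316 UMIs per barcode, and shared 40 barcodes. A gene with few transcripts is found in fewer cells of a shallow library, so the shares are also given with every cell reduced at random to 2000 of its UMIs (thinned), which kept 301 of 309 and 369 of 533 microglia. Free RNA in the droplets gives UMIs in cells that do not express a gene, and endothelial cells, with a median of 3066 and 2290 UMIs, were taken as a reference class for it, since no empty droplets were analysed here. The myelin genes *Mbp*, *Mobp*, *Mag*, *Cnp* and *Mog* summed to 10466 and 15433 CPM in microglia and to 11297 and 15857 CPM in macrophages.

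Most members were detected in a minority of microglia and at 1 UMI per positive cell. *Fabp5* was found in most microglia, *Lpl* in 17.2% and 13.1%, *Cst7*, *Igf1* and *Spp1* in between 4.5% and 9.4%, *Lgals3* in 1.62% and 3.19%, *Itgax* in 1.29% and 1.31%, and *Gpnmb* in none. Of the members, *Cst7* and *Lgals3* were at least 4-fold higher in microglia than in all non-myeloid classes together in both libraries, as were 5.19% of all genes compared, whereas *Spp1* and *Igf1* had their highest levels outside microglia and *Fabp5* was lower in microglia than in non-myeloid cells.

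**Figure D1:**
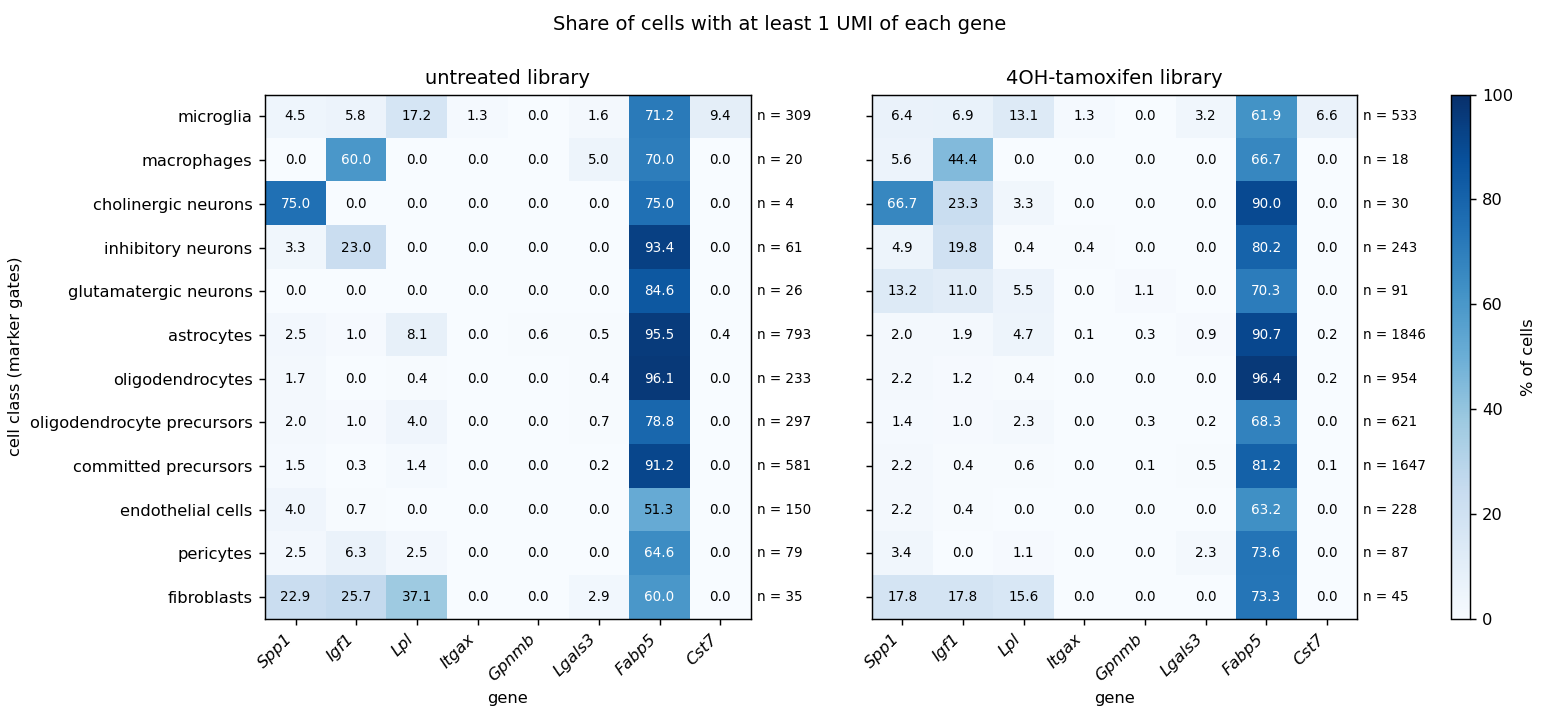
Percentage of cells with at least 1 UMI of each of the 8 genes (columns) in 12 marker-gated cell classes (rows), in the untreated library (left) and the 4OH-tamoxifen library (right), with the number of cells beside each row and darker blue for a higher percentage. *Fabp5* was detected in at least 51.3% of cells of every class shown, *Spp1* in 75.0% and 66.7% of cholinergic neurons, *Igf1* in 60% and 44.4% of macrophages, and *Cst7* in 9.4% and 6.6% of microglia against at most 0.4% of any other class shown.

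The secreted ligand *Spp1* was more abundant in cholinergic neurons and fibroblasts than in microglia. *Spp1* was detected in 14 of 309 untreated microglia (4.53%, interval 2.50 to 7.49) with 17 UMIs, a level of 13.2 CPM (7.67 to 21.1). In the 4OH-tamoxifen library it was detected in 34 of 533 microglia (6.38%, 4.46 to 8.80) with 52 UMIs, or 39.1 CPM (29.2 to 51.3). Of the positive microglia, 12 of 14 and 29 of 34 held a single UMI, and the highest cells held 3 and 10. Endothelial cells had *Spp1* in 4.00% and 2.19% of cells, and the ratio of endothelial to microglial CPM was 0.76 (0.245 to 2.02) in the untreated library, an interval that includes 1, and 0.20 (0.0624 to 0.498) in the other. The ratio of pericytes to microglia was 1.96 (0.567 to 5.55) and 0.815 (0.254 to 2.03), intervals that both include 1. The part of free RNA in the microglial level was not tested. After thinning, 2.99% and 5.42% of microglia held *Spp1*.

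In cholinergic neurons, defined by at least 2 UMIs of *Chat* (the enzyme of acetylcholine synthesis), *Spp1* was found in 3 of 4 untreated cells (201 CPM) and in 20 of 30 cells of the 4OH-tamoxifen library (476 CPM, 386 to 581), with up to 18 UMIs in a cell. These levels were 15.2-fold (4.40 to 43.0) and 12.2-fold (8.61 to 17.4) those of microglia. With a looser gate of at least 1 *Chat* UMI, chosen after seeing the data, *Spp1* was in 46.7% of 15 and 48.6% of 105 such cells. The untreated value rests on 5 UMIs in 4 cells, and none of these UMIs was left after thinning. In the 4OH-tamoxifen library 10% rather than 20% as the highest mitochondrial share left 13 cholinergic cells and a ratio of 3.36. In the untreated library stricter gates of 8 UMIs for glia, vascular cells and fibroblasts gave 8 cholinergic cells and a ratio of 32.2 (18.0 to 58.3).
Fibroblasts, which form the meninges and surround vessels, had *Spp1* in 22.9% and 17.8% of 35 and 45 cells, at 81.7 and 102 CPM. Glutamatergic neurons, gated on *Slc17a6* (the vesicular glutamate transporter 2), had none in 26 untreated cells (which allows up to 11.5% of cells with a UMI) and 13.2% of 91 cells in the 4OH-tamoxifen library. Inhibitory neurons, gated on *Slc32a1* (the vesicular GABA transporter), had *Spp1* in 3.28% and 4.94% of cells, intervals that overlap those of microglia. Macrophages had no *Spp1* UMI in 20 untreated cells and 1 in 18 cells of the other library. Pericytes stood at 25.9 and 31.9 CPM, astrocytes at 11 and 17.6 CPM, oligodendrocyte precursors at 6.26 and 7.86 CPM, committed precursors at 2.19 and 7.26 CPM and oligodendrocytes at 2.04 and 4.08 CPM. Cholinergic neurons had the highest measured level in both libraries, but the untreated interval of that level (65.2 to 468 CPM) includes the fibroblast level. In the 4OH-tamoxifen library, the ratio of 3.36 under the 10% mitochondrial limit rests on 6 cholinergic *Spp1* UMIs (interval 1.17 to 7.91). The untreated intervals of microglia, astrocytes, endothelial cells and pericytes overlapped. Microglia held 9.34% and 5.55% of all *Spp1* UMIs in the filtered cells.

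*Igf1* stood higher in macrophages and inhibitory neurons than in microglia in both libraries. It was detected in 18 of 309 untreated microglia (5.83%, 3.49 to 9.05; 26 UMIs, 20.1 CPM) and in 37 of 533 of the 4OH-tamoxifen library (6.94%, 4.93 to 9.44; 47 UMIs, 35.3 CPM), against 0.667% and 0.439% of endothelial cells. A single UMI was found in 15 of 18 and 30 of 37 positive microglia, and 6 and 3 UMIs in the highest. After thinning the shares were 4.32% and 5.96%. Macrophages held *Igf1* in 12 of 20 (60%, 36.1 to 80.9; 250 CPM) and 8 of 18 cells (44.4%, 21.5 to 69.2; 313 CPM). The macrophage level was 12.4-fold (6.71 to 22.8) and 8.85-fold (4.50 to 16.3) that of microglia. Among 8197 genes compared between these classes, 0.964% were at least 4-fold higher in macrophages in both libraries and 0.232% at least 4-fold lower. Of the 6 members that could be compared, *Igf1* was higher and none was lower by that rule. Fibroblasts had *Igf1* in 25.7% and 17.8% of cells (253 and 76.7 CPM), a level 12.5-fold (7.31 to 21.8) that of microglia in the untreated library and 2.17-fold (0.935 to 4.48) in the other, where the interval includes 1. Inhibitory neurons had it in 23.0% and 19.8% of cells (67.4 and 80.2 CPM), a level 3.35-fold and 2.27-fold that of microglia. Oligodendrocytes, their precursors and astrocytes had *Igf1* in at most 1.90% of cells in either library. Cholinergic neurons had none in 4 untreated cells and 63.8 CPM in the 4OH-tamoxifen library, 1.81-fold (0.897 to 3.39) the microglial level. Glutamatergic neurons had none in 26 untreated cells and 36.4 CPM in the other library, 1.03-fold (0.554 to 1.83). With the looser gate of at least 1 *Chat* UMI, *Igf1* was in 6.67% of 15 and 23.8% of 105 cells. In the 4OH-tamoxifen library that level was 2.55-fold (1.71 to 3.84) that of microglia.

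*Lpl* was the most frequently detected member in microglia after *Fabp5*. It was found in 53 of 309 untreated microglia (17.2%, 13.1 to 21.8; 68 UMIs, 52.7 CPM) and in 70 of 533 of the 4OH-tamoxifen library (13.1%, 10.4 to 16.3; 87 UMIs, 65.4 CPM), and in no endothelial cell of either library. A single UMI was found in 43 of 53 and 58 of 70 positive cells, and 4 UMIs in the highest of each library. Thinning turned the order of these shares, to 8.64% and 11.9%. No macrophage had an *Lpl* UMI, which allows up to 15% and 16.7% of cells with a UMI. The interval of the ratio of macrophages to microglia ran from 0 to 0.818 in the untreated library and from 0 to 1.29 in the other, which was too shallow for a direction. Fibroblasts had *Lpl* in 37.1% and 15.6% of cells (126 and 76.7 CPM). Astrocytes had it in 8.07% and 4.71% of cells (59.9 and 29.7 CPM), a level 1.14-fold (0.844 to 1.54) that of untreated microglia and 0.453-fold (0.341 to 0.605) that of microglia in the other library. Oligodendrocyte precursors stood at 15.6 and 11.8 CPM, pericytes at 10.4 and 12.7 CPM, and oligodendrocytes and committed precursors at less than 2 CPM. The intervals of fibroblasts and microglia did not overlap in the untreated library and overlapped in the other. Neurons of all 3 kinds were at 0 in the untreated library and at most 5.49% in the other.

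*Fabp5* was detected nearly everywhere. Microglia had it in 220 of 309 (71.2%, 65.8 to 76.2; 409 UMIs, 317 CPM) and 330 of 533 cells (61.9%, 57.6 to 66.1; 544 UMIs, 409 CPM). Endothelial cells had it in 51.3% and 63.2%, astrocytes in 95.5% and 90.7% (1697 and 1328 CPM) and oligodendrocytes in 96.1% and 96.4% (903 and 1093 CPM). Pericytes (631 and 758 CPM), committed precursors (726 and 811 CPM) and oligodendrocyte precursors (513 and 608 CPM) were also above microglia, whereas endothelial cells (240 and 376 CPM) were lower in the untreated library, at 0.758-fold (0.623 to 0.919), and not distinguishable from microglia in the other, at 0.919-fold (0.786 to 1.07). Macrophages stood at 250 and 491 CPM, with intervals of the ratio that include 1 in both libraries. Inhibitory neurons were above microglia, at 1.62-fold (1.38 to 1.91) and 1.14-fold (1.01 to 1.29). Fibroblasts stood at 1.08-fold (0.777 to 1.47) and 1.42-fold (1.08 to 1.83), and glutamatergic neurons at 0.807-fold (0.587 to 1.09) and 0.727-fold (0.599 to 0.878). Cholinergic neurons stood at 0.634-fold (0.205 to 1.49) and 1.03-fold (0.813 to 1.30). After thinning, *Fabp5* was in 45.8% and 52.6% of microglia. The level of *Fabp5* in microglia was 0.356-fold and 0.441-fold that of the non-myeloid classes together. Because *Fabp5* was in most cells of every class, counts of members per cell are given below with and without it.

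*Itgax* was rare but almost limited to myeloid cells. It was detected in 4 of 309 untreated microglia (1.29%, 0.354 to 3.28) and 7 of 533 of the 4OH-tamoxifen library (1.31%, 0.530 to 2.69), always as a single UMI. Non-myeloid classes held none in 2259 untreated cells and 2 UMIs in 5792 cells of the other library, 1 in an astrocyte and 1 in an inhibitory neuron. The microglial level was 11.3-fold higher in the untreated library with the non-myeloid cells set at 3 counts, the exact interval of the ratio starting at 5.58, and 54.6-fold (10.4 to 538) that of non-myeloid cells in the other.

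*Gpnmb* was not detected in microglia. None of 309 and none of 533 cells had a UMI, which allows up to 0.971% and 0.563% of cells with a UMI but sets no limit on cells that express the gene below detection, and none of the macrophages had one. The filtered cells of the libraries held 6 and 15 *Gpnmb* UMIs, of which 5 and 5 were in astrocytes. The gene was thus at or near the limit of detection in every class, and the intervals of its ratio of microglia to non-myeloid classes ran from 0 to 9.22 and from 0 to 7.90.

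*Lgals3* was found in few microglia, most of them with a single UMI (4 of 5 and 13 of 17 positive cells). It was detected in 5 of 309 untreated microglia (1.62%, 0.527 to 3.74; 8 UMIs, 6.20 CPM) and 17 of 533 of the 4OH-tamoxifen library (3.19%, 1.87 to 5.06; 39 UMIs, 29.3 CPM). The highest cells held 4 and 11 UMIs, or 50% and 28.2% of all microglial *Lgals3* UMIs. No endothelial cell had *Lgals3*, and the level in non-myeloid cells was 0.825 and 1.35 CPM, giving a ratio of 7.51 (2.52 to 21.9) and 21.7 (13 to 36.6) for microglia, the untreated interval including 4. Of 20 untreated macrophages 1 held 5 UMIs (56.8 CPM), and no macrophage of the other library held any. Of the 3 other leukocytes in the 4OH-tamoxifen library (cells with leukocyte genes and at most 1 UMI of the myeloid gate) 2 held *Lgals3*.

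*Cst7* was found mostly in microglia. It was detected in 29 of 309 untreated microglia (9.39%, 6.38 to 13.2; 36 UMIs, 27.9 CPM) and 35 of 533 of the 4OH-tamoxifen library (6.57%, 4.62 to 9.01; 46 UMIs, 34.6 CPM). After thinning the shares were 5.65% and 5.96%. Non-myeloid classes held 3 and 6 *Cst7* UMIs in all, so that the microglial level was 101-fold (32.0 to 515) and 119-fold (50.9 to 342) theirs. Microglia held 72% and 75.4% of all *Cst7* UMIs in the filtered cells. Macrophages held none in 20 and 18 cells, and the interval of their ratio to microglia reached 1.58 and 2.48, so no difference was detectable at this depth.

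Among the 14278 genes that could be compared between microglia and non-myeloid classes, 5.19% were at least 4-fold higher in microglia in both libraries and 7.61% at least 4-fold lower. Of the 8 members, 6 had enough UMIs (at least 10 over both classes in each library), *Itgax* and *Gpnmb* having fewer. *Lgals3* and *Cst7* were higher, and none was lower, and after thinning only *Cst7* met the rule. The untreated call of *Lgals3* rests on 8 UMIs, 4 of them in 1 cell. The ratio was 2.58 and 3.64 for *Igf1*, 3.21 and 8.17 for *Lpl*, and 1.94 (1.07 to 3.32) and 2.31 (1.69 to 3.10) for *Spp1*.

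**Figure D2:**
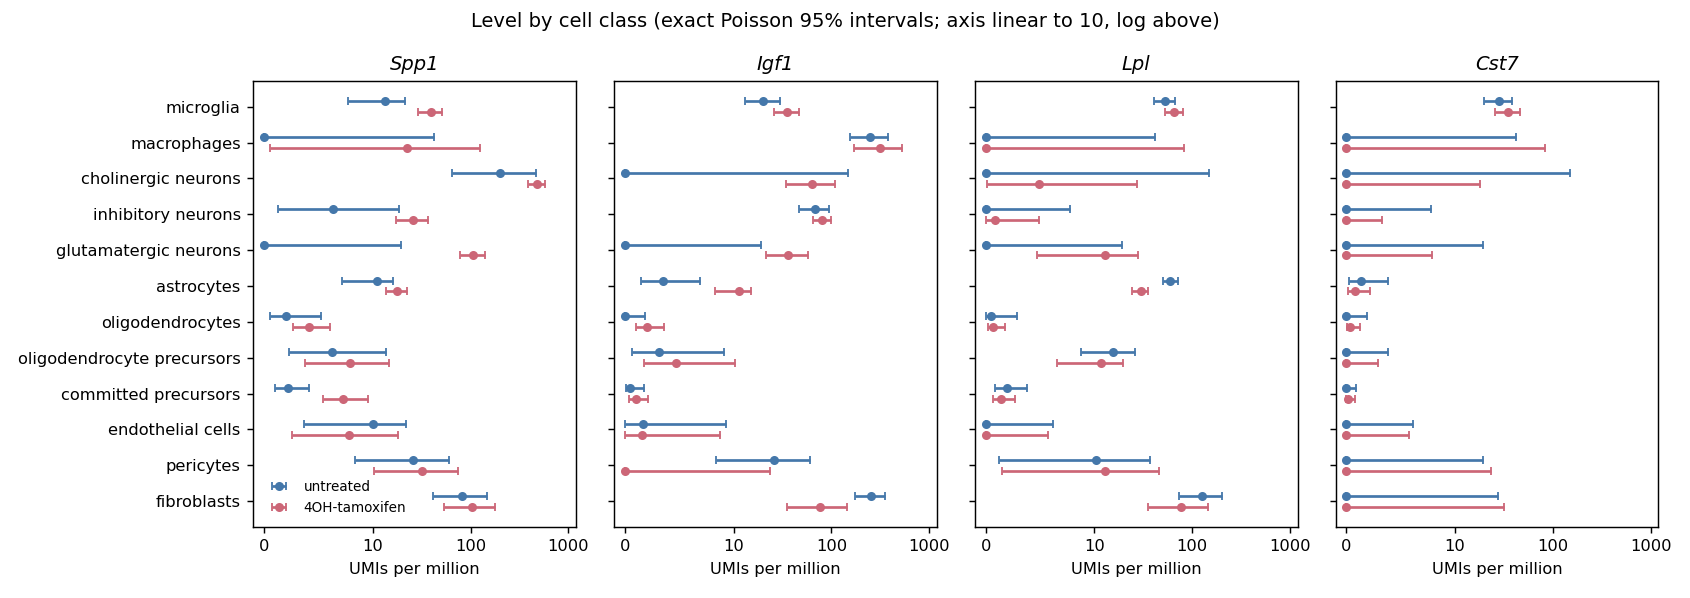
Level of *Spp1*, *Igf1*, *Lpl* and *Cst7* in CPM (x axis, linear to 10 CPM and logarithmic above) in 12 cell classes (rows), with the untreated library in blue, the 4OH-tamoxifen library in red and bars for the exact 95% Poisson interval, which covers counting error only. *Cst7* sat at 27.9 and 34.6 CPM in microglia with all other classes shown at 1.32 CPM or below, while *Spp1* was highest in cholinergic neurons at 201 and 476 CPM.

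For each member the genes with the most similar profile over 14 cell classes and both libraries (28 points, Pearson correlation of log2(CPM + 10)) were listed as a description, since the points of 1 library share its free RNA and depth. *Cst7* was most like *Rgs1* (r = 0.996) and *H2-Oa* (0.969), and *Lpl* most like *Mylip* (0.766) and *Olfml3* (0.752). *Igf1* was most like *Maf* (0.814) and *Cmklr1* (0.754), *Spp1* most like *Scn4b* (0.791) and *Epha7* (0.784), and *Fabp5* most like *Plpp3* (0.842) and *Ttyh1* (0.80). The profiles of *Lgals3* (*Phf11b*, 0.967, and *Il7r*, 0.936) and *Itgax* (*C130050O18Rik*, 0.983, and *Gm43936*, 0.978) rest on classes of 3 and 5 cells, and that of *Gpnmb* (*Gabra4*, 0.794, and *Mia*, 0.742) on levels of at most 2.2 CPM.

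To compare the conditions, the levels of the members in microglia of the 2 libraries were set side by side. *Spp1* stood at 13.2 and 39.1 CPM, a ratio of 2.97 (1.69 to 5.48) of the 4OH-tamoxifen to the untreated library. *Lgals3* stood at 6.20 and 29.3 CPM (4.73, 2.2 to 11.7) and *Igf1* at 20.1 and 35.3 CPM (1.75, 1.06 to 2.95). *Itgax* had a ratio of 1.70 (0.432 to 7.91), *Fabp5* of 1.29 (1.13 to 1.47), *Lpl* of 1.24 (0.894 to 1.73) and *Cst7* of 1.24 (0.784 to 1.97). Of the 7 members compared, 4 (*Spp1*, *Igf1*, *Itgax* and *Lgals3*) were past 1.5-fold higher and none past 1.5-fold lower, whereas of all 10624 genes 20.5% were past 1.5-fold higher and 10.5% lower, with a median ratio of 1.05. The intervals of *Spp1* and *Lgals3* excluded 1.5, and those of *Igf1* and *Itgax* did not. Microglia were not the only class with such ratios. *Spp1* had a ratio of 3.31 (1.61 to 7.66) in committed precursors and 4.04 (1.3 to 20.7) in inhibitory neurons, and *Igf1* of 3.21 (1.5 to 7.89) in astrocytes and 0.304 (0.128 to 0.646) in fibroblasts. With 1 library per condition these are differences between 2 libraries.

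Other gene groups also differed between the microglia of the libraries. Of 9 homeostatic genes, 5 were past 1.5-fold lower in the 4OH-tamoxifen library and none higher (median ratio 0.599), with *P2ry12* at 0.391, *Gpr34* at 0.421, *P2ry13* at 0.484 and *Selplg* at 0.595. All 8 cell cycle genes were higher (median 2.95). Of 9 dissociation response genes, 6 were lower (median 0.550), and 2 of 5 myelin genes were higher (*Mog* at 1.80 and *Mobp* at 1.62). Of 22 other activation and lysosome genes, 3 were higher (*Axl* at 2.62, *Csf1* at 1.94 and *Anxa5* at 1.69) and none lower, with a median of 1.03. Of the 3 macrophage genes with enough UMIs, 2 were higher (*Pf4* at 1.70, 1.01 to 2.93, and *Cbr2* at 3.88, 0.775 to 37.5) and *Stab1* was at 1.05, beside *Igf1*, which was higher in macrophages than in microglia in both libraries. The part of these groups in the member ratios was not tested. When microglia with 2 or more UMIs of other cell types' gate genes were left out (123 and 224 cells remained), the ratio was 2.59 (1.23 to 5.95) for *Spp1*, 1.30 (0.566 to 3.09) for *Igf1* and 0.744 (0.180 to 2.92) for *Lgals3*, on 6 and 5 UMIs. After thinning it was 1.77 (0.861 to 3.84) for *Spp1*, 1.40 (0.695 to 2.92) for *Igf1* and 5.71 (1.70 to 29.9) for *Lgals3*.

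**Figure D3:**
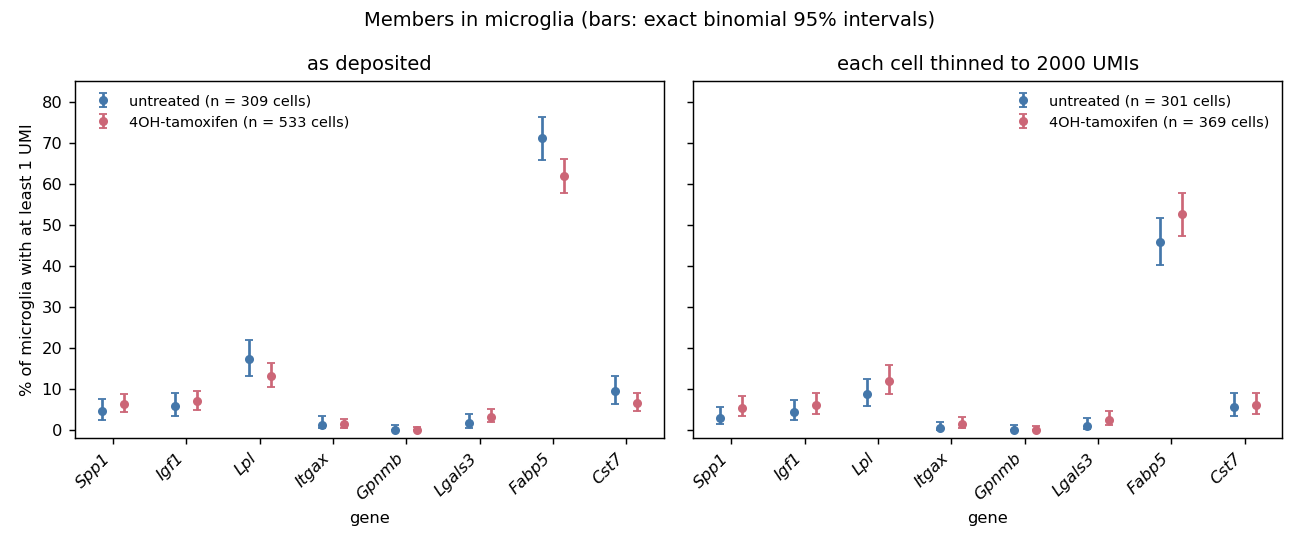
Percentage of microglia with at least 1 UMI of each gene in the untreated (blue) and the 4OH-tamoxifen (red) library, as deposited on the left and after thinning to 2000 UMIs per cell on the right, with bars for the exact 95% binomial interval. For *Lpl* the untreated library was higher as deposited (17.2% against 13.1%) and lower after thinning (8.64% against 11.9%).

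Members were next counted per cell. At least 1 member was found in 246 of 309 untreated microglia (79.6%, 74.7 to 84.0) and 383 of 533 of the 4OH-tamoxifen library (71.9%, 67.8 to 75.6), most of them through *Fabp5*. At least 3 members were found in 17 (5.50%, 3.24 to 8.66) and 28 cells (5.25%, 3.52 to 7.5), and at least 4 in 4 and 8 cells. Without *Fabp5*, 31.1% and 28.5% of microglia held at least 1 member, 6.80% and 6.75% at least 2, and 1.29% and 1.69% at least 3. In thinned cells the share with at least 1 member was 57.1% and 66.1%, and that with at least 3 was 1.66% and 2.98%.
Without *Fabp5*, at least 2 members were found in 1.13% and 0.975% of astrocytes, in no endothelial cell or macrophage, and in 22.9% and 4.44% of fibroblasts. At least 3 were found in none of these classes. The most common pair in a cell was *Lpl* with *Fabp5* and no other member (33 and 30 cells). *Fabp5* with *Cst7* alone was in 10 and 13 cells, and *Igf1* with *Fabp5* alone in 3 and 16.

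**Figure D4:**
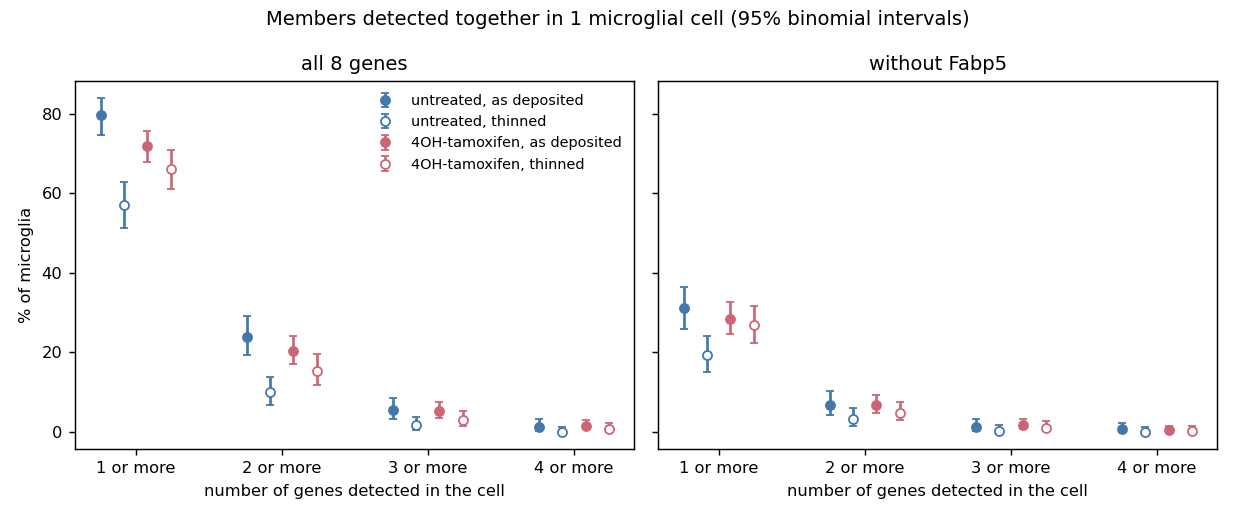
Percentage of microglia with at least 1, 2, 3 or 4 of the genes in the untreated (blue) and 4OH-tamoxifen (red) libraries, as deposited (filled points) and thinned to 2000 UMIs (open points), counted with *Fabp5* on the left and without it on the right, with bars for the exact 95% binomial interval. At least 3 members were found in 5.50% and 5.25% of microglia with *Fabp5* counted and in 1.29% and 1.69% without it.

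Some members were detected in a larger share of cells with another member than of cells without it, and the former cells were also deeper. As deposited, the intervals overlapped for *Igf1* in *Lgals3*-positive and in *Cst7*-positive 4OH-tamoxifen cells and for *Cst7* in *Igf1*-positive untreated cells. After thinning, the intervals of every pair below overlapped. In the 4OH-tamoxifen library, *Lgals3*-positive microglia held *Spp1* in 7 of 17 cells (41.2%, 18.4 to 67.1) against 5.23% of *Lgals3*-negative cells, *Lpl* in 41.2% against 12.2%, *Cst7* in 29.4% against 5.81% and *Igf1* in 23.5% against 6.40%. Their median depth was 3401 UMIs, against 2262 in cells without *Lgals3*, and after thinning 2 of 9 *Lgals3*-positive cells (22.2%, 2.81 to 60) held *Spp1* against 5.00% of the others. *Cst7*-positive microglia held *Spp1* in 20% against 5.42% and *Igf1* in 17.1% against 6.22%, and after thinning both were in 13.6% of 22 *Cst7*-positive cells (2.91 to 34.9) against 4.90% and 5.48%, which do not differ beyond counting error. In the untreated library, *Igf1*-positive microglia held *Lgals3* in 4 of 18 cells (22.2%, 6.41 to 47.6) against 0.344%, and *Cst7* in 27.8% against 8.25%. After thinning these were 1 of 13 cells (7.69%, 0.195 to 36.0) against 0.694% for *Lgals3* and 23.1% (5.04 to 53.8) against 4.86% for *Cst7*, and both pairs of intervals overlapped. *Cst7* and *Spp1* were not found together more often there, at 3.45% of *Cst7*-positive cells against 4.64% of the others, and none of the 5 *Lgals3*-positive cells held *Spp1* (0%, up to 52.2) against 4.61% of the others. *Lpl* and *Fabp5* coincided in 83.0% against 68.8% in the untreated library and in 61.4% against 62.0% in the other, and after thinning in 46.2% against 45.8% and 40.9% against 54.2%. *Itgax* and *Lgals3* were in no cell together.

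To see what else differed in microglia with several members, cells with at least 3 (17 and 28 cells) were compared with cells with none (63 and 150 cells). The members set this split, so their own ratios are not given. The line between the groups was thin, 13 and 20 of the cells holding exactly 3 members and 57 and 81 of the cells between the groups exactly 2. Cells with at least 3 members had a median of 5486 and 3447 UMIs, against 3770 and 2085 in cells with none, and every level below is in CPM.

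Of 773 genes with enough UMIs, 9.57% (74) were at least 1.5-fold higher in both libraries and 1.29% (10) at least 1.5-fold lower. Because a gene had to reach 50 CPM in its higher group and 20 UMIs in its lower group, and the group with at least 3 members was the smaller one, fewer genes that were lower in it could pass this filter. With a filter on the mean level of both groups, which is the same for either direction and was chosen after seeing the data, 7.13% (40) of 561 genes were higher and 2.32% (13) lower, and 36% had a ratio above 1 in both libraries. Genes were ranked among the 773 of the first filter, which a gene could pass through its level in the higher group. The 10 genes with the largest ratios in both libraries were *Pld3* (3.35 and 4.66), *Ctsb* (3.07 and 3.01), *Mif* (3.42 and 2.79), *Ctsz* (2.61 and 2.97), *Cd63* (2.59 and 3.69), *Cstb* (2.51 and 3.86), *Ldha* (3.33 and 2.47), *Lyz2* (3.18 and 2.45), *Syngr1* (2.35 and 3.63) and *Creg1* (2.26 and 2.84). Of these, *Ctsb*, *Ctsz*, *Cd63* and *Lyz2* were also past 1.5-fold higher by the filter on the mean level. Whether the others passed that filter is not given here. *Pld3*, *Ctsb*, *Ctsz* and *Creg1* encode lysosomal proteins, *Cd63* a tetraspanin of late endosomes, *Cstb* an inhibitor of cathepsins, *Lyz2* lysozyme and *Ldha* an enzyme of glycolysis.

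Of the 27 other activation and lysosome genes, 15 could be compared by the filter on the mean level, the other 12 being too low (under a mean of 50 CPM, or of 20 UMIs expected in either group, in a library). All 15 had a ratio above 1 in both libraries (median 2.11 and 2.08, against 0.986 and 1.02 over all 561 genes), and 9 were past 1.5-fold in both: *Cd63*, *Cd9*, *Cd68*, *Ctsb*, *Ctsd*, *Ctsz*, *Lyz2*, *Ccl3* and *Ccl4*. None was past 1.5-fold lower. *Ccl4* stood at 4.97 and 1.87, *Ccl3* at 4.22 and 2.08, *Ctsd*, a lysosomal aspartic protease, at 2.11 and 2.82, and *Cd9*, a tetraspanin, at 2.22 and 2.56. The chemokines *Ccl3* and *Ccl4* are also known to respond to tissue dissociation, whose part in these ratios was not tested. Of 4 genes of the dissociation response that could be compared, none was past 1.5-fold in the same direction in both libraries, and *Fos* and *Jun* went opposite ways in the libraries.

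By the first filter 10 genes were lower, among them 3 homeostatic genes, and the filter on the mean level added *Use1*, *Cmtm7* and *Aldoc*. *Selplg* (0.465 and 0.447), *P2ry12* (0.470 and 0.400) and *Tmem119* (0.609 and 0.366) were past 1.5-fold lower in both libraries, 3 of the 7 homeostatic genes that could be compared by either filter, and none was higher (median 0.696 and 0.730). *Fcrls* (1.01 and 1.02), also homeostatic, was near 1. The other 7 lower genes were *Cox7a2l* (0.468 and 0.464) and *Ndufa6* (0.539 and 0.583) of the respiratory chain, *Glul* (0.549 and 0.483), the glutamine synthetase that is high in astrocytes, *Mt3* (0.646 and 0.643), a metallothionein, *Ltc4s* (0.653 and 0.494), the enzyme of leukotriene C4 synthesis, *Tmem176b* (0.592 and 0.602) and *Ptpn18* (0.635 and 0.537). Myelin genes, which mark RNA from oligodendrocytes or engulfed myelin, were not past 1.5-fold in the same direction (0 of 3, median 0.821 and 0.759), with *Mbp* at 0.533 and 0.671. The summed level of the cell cycle genes was 387 and 840 CPM in cells with at least 3 members, against 129 and 607 CPM in cells with none. Its part in these ratios was not tested.
When the cells were instead divided at 2 members, 33 of 1511 genes were higher and 9 lower by the filter on the mean level, 9 of 17 activation and lysosome genes among the former and no homeostatic gene among the latter, with *P2ry12* at 0.668 and 0.633. Divided at 4 members (4 and 8 cells), 8 of 11 activation and lysosome genes were above 1 in both libraries, and *Apoe*, *Trem2* and *Npc2* were not. Of all 173 genes compared at this cut, 25.4% were above 1 in both libraries, 16 were past 1.5-fold higher and 7 lower. Without counting *Fabp5*, a choice made after seeing the data, cells with at least 2 members had 45 of 688 genes higher and 17 lower, among them 9 of 15 activation and lysosome genes and the same 3 homeostatic genes. Of the 3 myelin genes compared in this split, 2 (*Mbp* and *Cnp*) were also past 1.5-fold lower (median of the 3, 0.648 and 0.613). In thinned cells only 5 and 11 cells held at least 3 members, and of 84 genes compared 4 were higher and 1 lower, with 3 of 6 activation and lysosome genes (*Ctsb*, *Ctsd* and *Ctsz*) among the former. By the filter on the mean level no homeostatic gene could be compared after thinning. By the first filter 1 could, *Gpr34*, at 1.68 (0.903 to 2.88) and 1.1 (0.488 to 2.2). It was thus above 1 in both libraries, with intervals that include 1, whereas before thinning it was below 1 in both. *P2ry12*, with too few UMIs for either filter, stood at 0.222 (0.0717 to 0.520) and 0.586 (0.276 to 1.1).

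**Figure D5:**
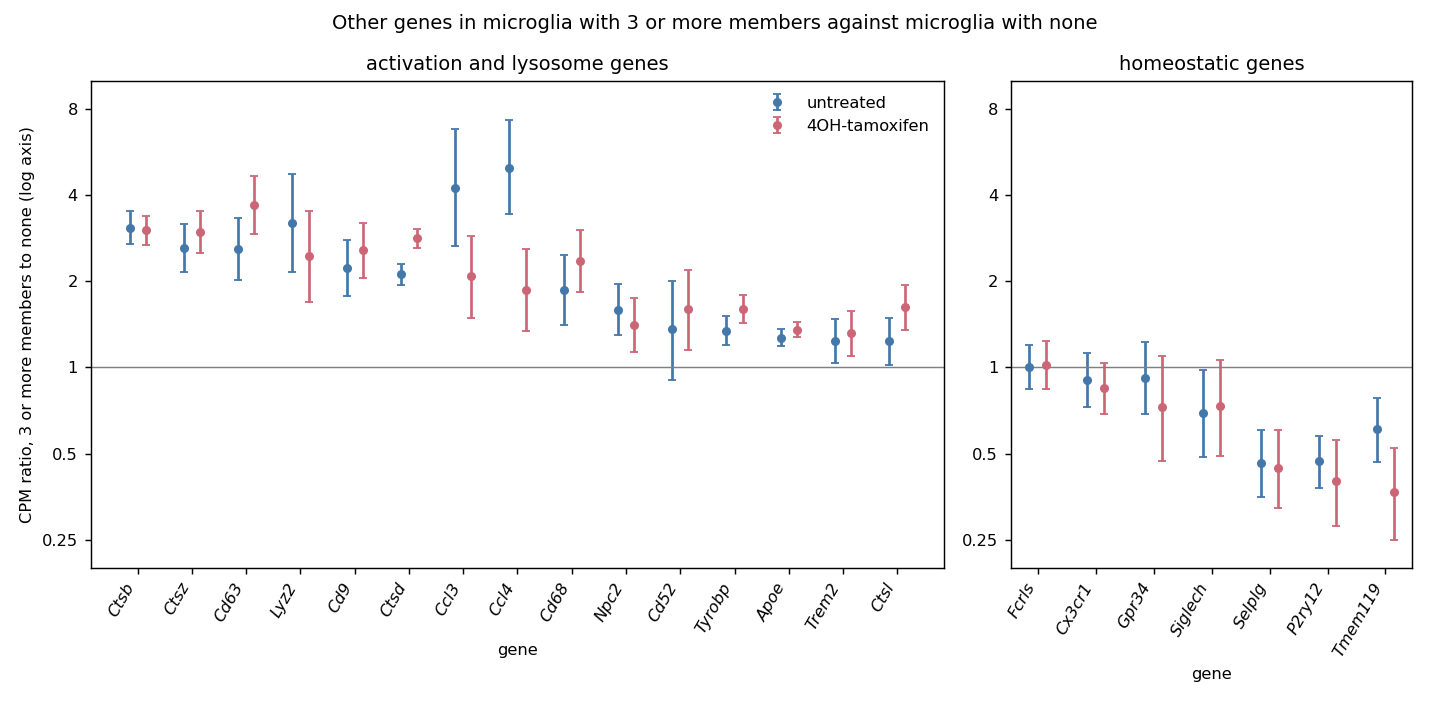
Ratio of CPM in microglia with at least 3 members to microglia with none, for the activation and lysosome genes (left) and homeostatic genes (right) that could be compared by the filter on the mean level, in the untreated (blue) and the 4OH-tamoxifen (red) library, on a logarithmic axis with a line at 1 and bars for the exact 95% interval of counting error. The 15 activation and lysosome genes lie above 1 in both libraries (median 2.11 and 2.08), and *Selplg*, *P2ry12* and *Tmem119* lie lowest of the 7 homeostatic genes.

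The receptors and partners of the members were found in several cell classes, and the highest class is given among the 11 with at least 10 cells in both libraries. Of the receptors of osteopontin, *Cd44* was highest in astrocytes (47.6 and 50.8 CPM), *Itgav* in oligodendrocyte precursors (146 and 188 CPM), *Itgb1* in pericytes (580 and 542 CPM) and *Itgb5* in microglia (380 and 289 CPM), in 72.8% and 48.0% of cells. *Igf1r*, the receptor of IGF-1, was highest in endothelial cells (382 and 482 CPM). *Lmf1*, which folds lipoprotein lipase, was highest in oligodendrocytes (59.8 and 40.3 CPM). *Itgb2*, which pairs with *Itgax*, was highest in microglia (89.9 and 64.7 CPM), as was *Syk* (44.9 and 36.1 CPM), a kinase of receptor signaling. *Ctsc*, the protease inhibited by cystatin F, was highest in macrophages (750 and 692 CPM) and lower in microglia (125 and 140 CPM). In microglia, of 13 partner genes compared between the libraries, none was past 1.5-fold higher and 1 was lower (*Lmf1*, 0.647), and 1 could be compared between cells with at least 3 members and none (*Itgb5*), which did not pass 1.5-fold.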

How the data were processed

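Counts of unique transcripts (UMIs) per gene and barcode were used as deposited. Per the labels, the authors made them with bcl2fastq 2.18.0.12 and Cell Ranger 2.2.0 on mm10 (GRCm38), from 10X Genomics version 2 chemistry, without normalization. The deposited counts still held low-quality barcodes and doublets, so the study's filters were applied again: Scrublet (in scanpy 1.11.5; automatic threshold 0.512 and 0.179, marking 6 and 544 barcodes), at least 800 genes, at most 50 hemoglobin UMIs and at most 20% mitochondrial UMIs.

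Cells were classed by UMI gates on marker genes: at least 8 UMIs for myeloid cells, 2 for *Chat*, *Slc32a1* and *Slc17a6*, and 4 for glia, vascular cells, fibroblasts and other leukocytes. A cell passing several gates was in no class, except that committed oligodendrocyte precursors kept priority over precursors and oligodendrocytes. A level (CPM) is the sum of a gene's UMIs over a class, scaled to 1000000 UMIs. Its interval is exact Poisson, that of a share Clopper-Pearson and that of a ratio exact conditional. Counts of 0 were bounded at 3 counts. Intervals treat UMIs as independent. No test was run, since cells of 1 library are not replicates. The ratio interval was tested on simulated counts that were independent, as the interval assumes. Thinning was checked on untreated cells for the number of UMIs kept.

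A gene was called at 4-fold between classes and at 1.5-fold between libraries or within microglia (both libraries). All members found were examined in every class, and the text gives the classes compared for each. From each list, genes were named by the largest ratios. Between cells with at least 3 members and none, the 10 with the largest ratio in each direction were eligible. The 2 most similar profiles were named per member. Members and lists were chosen with earlier results of these data known. *Clec7a* was not analysed here. Some genes of the homeostatic and myelin lists are not reported here and were left out of those lists' counts, sums and medians. The alternatives were other filters, gates, doublet settings, folds, thinning to 2000 UMIs, a minimum of 2 UMIs and per-cell means. Promoter windows are from RefSeq (GRCm38.p6) and gene positions from GENCODE. Scripts used Python 3.11.15, numpy 2.4.6, scipy 1.17.1 and pandas 2.3.3.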

Additional observations from a re-analysis of the deposited data

Results flagged for a closer look

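The differences below were between the 2 libraries in the same contrast, in which one library had a ratio above 1 and the other a ratio below 1, or 0. None of these differences was tested, and each rests on 1 library per condition. *Lgals3* had a ratio of macrophages to microglia of 9.17 (2.36 to 31.8) in the untreated library, from 5 UMIs of 1 cell, and of 0 (up to 2.95) in the 4OH-tamoxifen library. *Igf1* had a ratio of pericytes to microglia of 1.28 (0.385 to 3.40) and 0 (up to 0.692). *Lpl* had a ratio of astrocytes to microglia of 1.14 (0.844 to 1.54) and 0.453 (0.341 to 0.605). *Spp1* had a ratio of glutamatergic neurons to microglia of 0 (up to 1.63) in 26 untreated cells and 2.68 (1.78 to 4.04) in 91 cells of the other library.

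Between microglia with at least 3 members and microglia with none, 2 listed genes went opposite ways in the libraries. The ratio of *Jun* was 0.349 (0.254 to 0.471) and 1.03 (0.783 to 1.35), and that of *Fos* 1.16 (0.887 to 1.5) and 0.623 (0.410 to 0.919). Both genes belong to the dissociation response.

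Cells that passed no gate belonged to none of the classes compared, although those with 1 *Chat* UMI entered the looser cholinergic gate, and *Spp1* was found in 8.63% of 197 such cells in the untreated library (5.11 to 13.5) and in 7.86% of 1311 in the 4OH-tamoxifen library (6.46 to 9.45). Endothelial cells had it in 4.00% (1.48 to 8.50) and 2.19% (0.716 to 5.04), so the intervals overlapped in the untreated library and not in the other.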

How the results depend on the processing

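With 134 pairs of a result and an alternative computed, 103 stayed within counting error or within 1.5 times the count. No paired analysis was possible because each condition was 1 library, and leaving out a library would have left a condition empty.

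With at least 1200 genes per cell, the share of 4OH-tamoxifen microglia with at least 1 member was 82.5% and with at least 3 members 11.3%, and the ratio of *Spp1* in cholinergic neurons to microglia was 7.64. With at most 10% mitochondrial UMIs that ratio was 3.36. Leaving out microglia with 2 or more UMIs of other gates gave 67.0% with at least 1 member in the 4OH-tamoxifen library and left 1 member (*Spp1*) past 1.5-fold between libraries. Thinning gave shares of 57.1% and 66.1% with at least 1 member, which turned the order of the libraries, and 1.66% and 2.98% with at least 3. It left 1 member (*Cst7*) 4-fold higher in microglia and 2 (*Spp1* and *Lgals3*) past 1.5-fold between libraries. *Itgax*, at 4.08 (0.456 to 193) on 1 and 5 UMIs, fell under the minimum of 10 UMIs. Between cells with at least 3 members and none, the first filter (50 CPM in the higher and 20 UMIs in the lower group) gave 104 of 382 genes higher and 1 lower after thinning. The filter on the mean level gave 4 of 84 higher and 1 lower. The ratio of *Spp1* in untreated cholinergic neurons to microglia became 0 (up to 27.1), with no UMI left in 4 cells. It was 32.2 with stricter glial, vascular and fibroblast gates and 9.74 when microglia with UMIs of other gates were left out.

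Counting a member from 2 UMIs gave 37.2% and 30.2% with at least 1 member and 0.324% and 0.750% with at least 3. A fold of 2 called 4 members higher in microglia and 2 between libraries, and a fold of 8 called 1 in microglia. By the first filter, which fewer lower genes could pass, dividing at 2 members gave 21 of 1488 genes higher and 4 lower. Dividing at 4 gave 124 of 547 higher and 6 lower. The filter on the mean level of both groups, added after seeing the data, gave 33 of 1511 higher and 9 lower at 2 members. It gave 40 of 561 higher and 13 lower at 3, and 16 of 173 higher and 7 lower at 4. Chosen after seeing the data, leaving *Fabp5* uncounted gave 31.1% and 28.5% with at least 1 member and 1.29% and 1.69% with at least 3. At 2 or more members it gave 181 of 1310 genes higher and 13 lower by the first filter. By the filter on the mean level it gave 45 of 688 higher and 17 lower. The cause of these shifts was not tested. *Igf1* was 4-fold higher in macrophages than in microglia under all 14 alternatives run. Depth limits the values of *Gpnmb*, *Itgax* and *Lgals3*, and those of the 4 untreated cholinergic neurons and about 20 macrophages per library.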

Other observations

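The cells that passed no gate held 48.2% of all *Spp1* UMIs in the 4OH-tamoxifen library (452 of 937), in 103 of 1311 cells, and 13.2% in the untreated library. These *Spp1*-positive cells had neuronal and motor neuron genes. In the 4OH-tamoxifen library 83.5% of them held *Snap25* (a synaptic protein of neurons), 86.4% *Nefh* (a neurofilament), 85.4% *Prph* (peripherin, a filament protein of peripheral and motor neurons), 75.7% *Slc5a7* (the choline transporter) and 52.4% *Isl1* (a factor of motor neurons), and 30.1% held *Chat*. Of the cells without *Spp1* that passed no gate, 33.9% held *Snap25*, 34.4% *Nefh*, 25.6% *Prph*, 15.8% *Slc5a7*, 5.79% *Isl1* and 3.64% *Chat*. The *Spp1*-positive cells were deeper, with a median of 4942 UMIs against 1804. In the untreated library, the 17 *Spp1*-positive cells held *Snap25* in 76.5%, *Prph* in 70.6% and *Slc5a7* in 58.8%. The 180 cells without *Spp1* held them in 40.0%, 21.7% and 25.0%, with a median of 2363 UMIs against 3619.

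Microglia with at least 2 of 8 cell cycle genes numbered 16 (untreated) and 57 (4OH-tamoxifen). *Lgals3* was in 1 of 16 (6.25%, 0.158 to 30.2) and 6 of 57 (10.5%, 3.96 to 21.5) of these cells, against 1.37% and 2.31% of the other microglia. *Spp1* was in 0% of 16 and 10.5% of 57 cycling cells, against 4.78% and 5.88% of the others, and *Lpl* in 25.0% and 17.5% against 16.7% and 12.6%. *Fabp5* was in 50% and 57.9% of cycling cells against 72.4% and 62.4%, *Igf1* in 6.25% and 3.51% against 5.80% and 7.35%, and *Cst7* in 18.8% and 7.02% against 8.87% and 6.51%. The intervals of cycling and other cells overlapped for each of these members in both libraries. Cycling microglia were deeper (median 4218 and 3100 UMIs, against 3998 and 2244), and the part of depth was not tested.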
